A study of Homo sapiens with 8 samples.

Results

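The HSP90 inhibitor NVP-HSP990 was compared with DMSO on expression arrays, in A375 melanoma cells that had not received Doxycycline. The comparison used 4 of the 8 HG-U133 Plus2 arrays of the study, chosen by their titles. In 2 of them, A375 cells carrying an inducible non-targeting hairpin (shNTC) had received 0.1% DMSO for 3 h, and in the other 2, A375 cells carrying an inducible hairpin called sh1999 in the titles (shHSF1, raised against HSF1) had received 100 nM NVP-HSP990 for 3 h. These are called the DMSO arrays and the NVP-HSP990 arrays below. All cells were grown for 3 days before the treatment. The remaining 4 arrays held the same lines and treatments after 100 ng/mL Doxycycline, which turns the hairpins on. The question was which genes changed when HSP90 was blocked while HSF1 was left in place.

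The hairpin line differed along with the drug, because neither line was given both treatments, so the drug and the line cannot be told apart in any value below. Both lines carried a Tet-inducible vector with puromycin selection, and whether each was a pool or a single clone is not given in the sources used here. The protocol text attached to the samples names Doxycycline for all lines, whereas the titles and the knockdown label separate arrays with and without it, and the titles were followed. The labels do not tell whether the 2 arrays of each group were independent cultures. The p-values therefore cover the spread between those arrays alone, which may be technical. In bulk RNA, fewer cells with a transcript and less of it in each cell cannot be told apart.

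HSP90 is an abundant chaperone that folds and stabilises kinases, steroid receptors and other client proteins, with the help of cochaperones. In unstressed cells it holds the transcription factor HSF1 in an inactive state. When HSP90 is blocked or unfolded proteins build up, HSF1 forms trimers, binds heat shock elements, which are repeats of the unit GAA in alternating orientation, and switches on genes for chaperones of the HSP70, HSP40 and small heat shock protein families. A375 is a human melanoma line with a mutant BRAF, a kinase that depends on HSP90.

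HSF1 itself, the target of the hairpin, gave signals of 38.2 and 47.3 on the DMSO arrays and of 99.0 and 42.5 on the NVP-HSP990 arrays. One NVP-HSP990 array was high and the other lay between the DMSO arrays, and the difference was 0.49 on the log2 scale with a standard error of 0.29 (adjusted p = 1.0), and -0.0018 without shHSF1 HSP990 replicate 1. With Doxycycline the HSF1 signals were 36.6 and 47.9 with DMSO and 5.5 and 7.3 with NVP-HSP990. The low HSF1 signals were thus on the arrays labelled as knockdown and on none of the 4 arrays compared here.

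Median signals were between 10.6 and 14.2 on the 8 arrays, in the arbitrary units of the MAS5 software, and every array had a trimmed mean of 150. Pearson correlations of log2 signals over the 12672 genes tested, which are not independent replicates, were between 0.9651 and 0.9929 for the pairs of arrays. The ratio of ACTB signals at the 3' and 5' ends, a measure of RNA quality, was 6.655 and 13.72 on the DMSO arrays and 18.9 and 8.271 on the NVP-HSP990 arrays, so the groups overlapped. It was highest, at 46.76, on shNTC Dox DMSO replicate 2, which entered the fit. Without that array 25 genes were called and the interaction described below called 24, and the part of RNA quality in these counts was not tested. Of 9 melanocyte markers with a probe set, 4 passed the filter on low signals, among them the lineage factor MITF, with signals of 1399.1 and 1775.2 on the DMSO arrays and 1642.2 and 1965.5 on the NVP-HSP990 arrays. MITF differed by 0.19 on the log2 scale, while SOX10, GPR143 and PAX3 differed by -0.31, -0.16 and -0.02. The pigment genes TYR, TYRP1, PMEL, MLANA and SLC45A2 were below the filter. The summed signal of the melanocyte list was 2406.6 and 2871.6 with DMSO and 2720.7 and 2714.3 with NVP-HSP990. The summed signals of the fibroblast, hepatocyte, colon epithelium and leukocyte lists were 573.9 to 600.1, 68.0 to 102.1, 107.3 to 119.1 and 94.3 to 114.2 with DMSO, and 624.1 to 651.5, 94.1 to 102.6, 94.1 to 121.1 and 104.0 to 133.8 with NVP-HSP990.

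Of the 12672 genes tested, 28 differed between the NVP-HSP990 and the DMSO arrays at an adjusted p under 0.05 (0.221% of the genes tested; limma, two-sided, Benjamini-Hochberg adjustment over all genes). Of these, 25 were higher with NVP-HSP990 (0.197%) and 3 were lower (0.0237%). The genes called higher were mostly chaperones and other heat shock genes, together with genes of the amino acid stress response, and those called lower were ID1, KCNJ2 and IER3. The signals of all 28 lay apart between the groups, which was also so for 17.6% of all genes on the higher side and 15.6% on the lower side. All 25 higher genes had more than 2 times the mean signal with NVP-HSP990.

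Few genes had large differences, and genes that missed the threshold may still have changed. The median difference over all genes was 0.0096 on the log2 scale, and 62 genes differed by more than 1, of which 27 were called. At an unadjusted p under 0.05 there were 628 genes (4.96%), where 634 would be due if no gene differed. The number called depended on single arrays. It was 5 without shNTC DMSO replicate 2, 12 without shNTC DMSO replicate 1, 14 without shHSF1 HSP990 replicate 2 and 24 without shHSF1 HSP990 replicate 1. It was 16 when genes with low signals were kept in the test. HSPA6, BAG3, HSPA1L, HSPA4L and RGS2 were called in all 8 fits that left out 1 array each, and all 28 kept their direction in those fits.

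**Figure D1:**
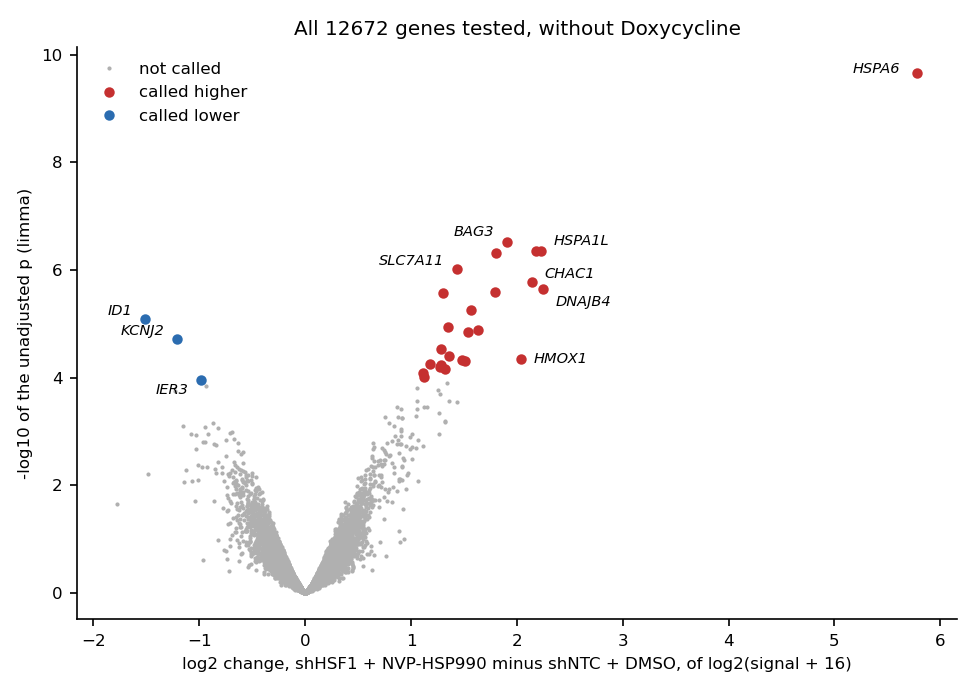
Each point is 1 of the 12672 genes tested, with its log2 difference between the NVP-HSP990 and the DMSO arrays on the x axis (log2 of the signal plus 16) and -log10 of the unadjusted p on the y axis. The 25 genes called higher are red, the 3 called lower are blue, and HSPA6 lies apart from all other genes at a difference of 5.78.

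The largest change of all was in the HSP70 family. HSPA6 encodes a strictly inducible HSP70, and its signals were 8.0 and 15.5 on the DMSO arrays, around the array medians of 12 and 11, and 1680.8 and 1328.5 on the NVP-HSP990 arrays. The difference was 5.78 on the log2 scale with a standard error of 0.24 (adjusted p = 2.79e-06). Since its DMSO signals were low, the size depended on the value added before the log, and was 6.94 with 1 added and 4.36 with 64 added. HSPA1L, an HSP70 otherwise known from testis, had signals of 12.3 and 8.6 with DMSO and 112.6 and 102.7 with NVP-HSP990 (log2 difference 2.23, standard error 0.20, adjusted p = 0.00121, and 3.26 with 1 added before the log or 1.20 with 64 added). HSPA4L, which belongs to the HSP110 nucleotide exchange factors, went from 35.8 and 35.6 to 197.6 and 242.9 (2.19, standard error 0.20, adjusted p = 0.00121). All 3 genes had signals of at most 35.8 on the DMSO arrays and of at least 102.7 on the NVP-HSP990 arrays.

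Heat shock elements could be looked for in the RefSeq promoter windows of 20 of the 25 higher genes (GRCh38.p14, 250 bases before to 50 bases after the start). The letters GAANNTTCNNGAA or TTCNNGAANNTTC, which are 3 units read on either strand, were found in 2 of the 20 windows (10%), against 0.338% of 10344 windows of genes tested and 0.487% of all 27305 windows. The shorter letters GAANNTTC or TTCNNGAA, which are 2 units and are contained in the longer motif, were found in 7 of the 20 (35%), against 10.2% of the windows of genes tested and 13.7% of all. These shares are a description without a test, and a window without the letters says nothing of sites elsewhere. The windows of HSPA6 and SERPINH1, which held 3 units, and of HSPB1 and HSPA1L, which held 2, are shown because these genes are described here, 5' to 3' on the strand of the gene, with the letters found in capitals. They are at chr1:161524290-161524589 (plus strand), chr11:75562003-75562302 (plus strand), chr7:76302423-76302722 (plus strand) and chr6:31815234-31815533 (minus strand). The 3 units began at position -74 in HSPA6 and -76 in SERPINH1, and the 2 units at -182 in HSPB1 and -161 in HSPA1L, counted from the start.
HSPA6: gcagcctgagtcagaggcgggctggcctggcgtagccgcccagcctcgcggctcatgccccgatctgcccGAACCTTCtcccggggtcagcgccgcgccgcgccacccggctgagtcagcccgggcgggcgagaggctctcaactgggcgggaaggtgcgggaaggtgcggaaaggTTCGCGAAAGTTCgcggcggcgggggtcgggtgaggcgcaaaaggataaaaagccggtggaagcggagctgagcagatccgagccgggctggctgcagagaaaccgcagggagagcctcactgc
SERPINH1: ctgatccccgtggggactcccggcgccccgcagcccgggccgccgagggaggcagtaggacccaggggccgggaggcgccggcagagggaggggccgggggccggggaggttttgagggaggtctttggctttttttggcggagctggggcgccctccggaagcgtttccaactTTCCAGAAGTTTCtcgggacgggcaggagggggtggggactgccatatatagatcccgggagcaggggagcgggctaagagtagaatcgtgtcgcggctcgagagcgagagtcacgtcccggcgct
HSPB1: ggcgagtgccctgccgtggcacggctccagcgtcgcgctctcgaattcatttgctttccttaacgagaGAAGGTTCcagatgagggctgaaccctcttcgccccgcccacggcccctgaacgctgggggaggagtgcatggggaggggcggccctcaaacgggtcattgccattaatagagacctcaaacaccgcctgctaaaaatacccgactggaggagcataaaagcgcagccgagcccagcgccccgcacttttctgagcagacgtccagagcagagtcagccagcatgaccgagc
HSPA1L: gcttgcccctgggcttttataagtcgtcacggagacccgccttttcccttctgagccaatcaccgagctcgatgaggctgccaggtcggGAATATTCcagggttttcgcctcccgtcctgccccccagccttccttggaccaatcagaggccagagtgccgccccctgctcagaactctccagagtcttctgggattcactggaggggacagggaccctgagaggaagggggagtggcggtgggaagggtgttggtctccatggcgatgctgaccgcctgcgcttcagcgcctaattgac
The remaining higher genes whose windows held the shorter letters were ZFAND2A, IER5L and DMRT1. Neither motif was found in the windows of BAG3, C5AR1, CCL26, CHAC1, DDIT3, DEDD2, DNAJB1, DNAJB4, ENGASE, HSPA4L, MXD1, RGS2 and SESN2. Of the 3 lower genes, 2 had a window, and that of ID1 (50%) held the shorter letters, at position -71.

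Of the 15 genes on the HSP70 and HSP110 list, 12 were tested, and HSPA6, HSPA1L and HSPA4L were the 3 called (0.197% of all genes were called higher). The median difference of the list was 0.28 on the log2 scale, against 0.0096 over all genes. HSPH1, the main HSP110, had signals of 1512.8 and 1896.5 with DMSO and 3555.8 and 3544.0 with NVP-HSP990, a difference of 1.06 that did not pass the threshold (adjusted p = 0.0626). HSPA2 differed by 0.71 (adjusted p = 0.514). The chaperones of other compartments gave values near 0, with 0.21 for HSPA5 (BiP, of the ER) and 0.07 for HSPA9 (mortalin, of mitochondria), which was -0.00989 without shNTC DMSO replicate 1. The major inducible and constitutive members HSPA1A, HSPA1B and HSPA8 were measured by probe sets that several genes share, and no value is given for them.

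**Figure D2:**
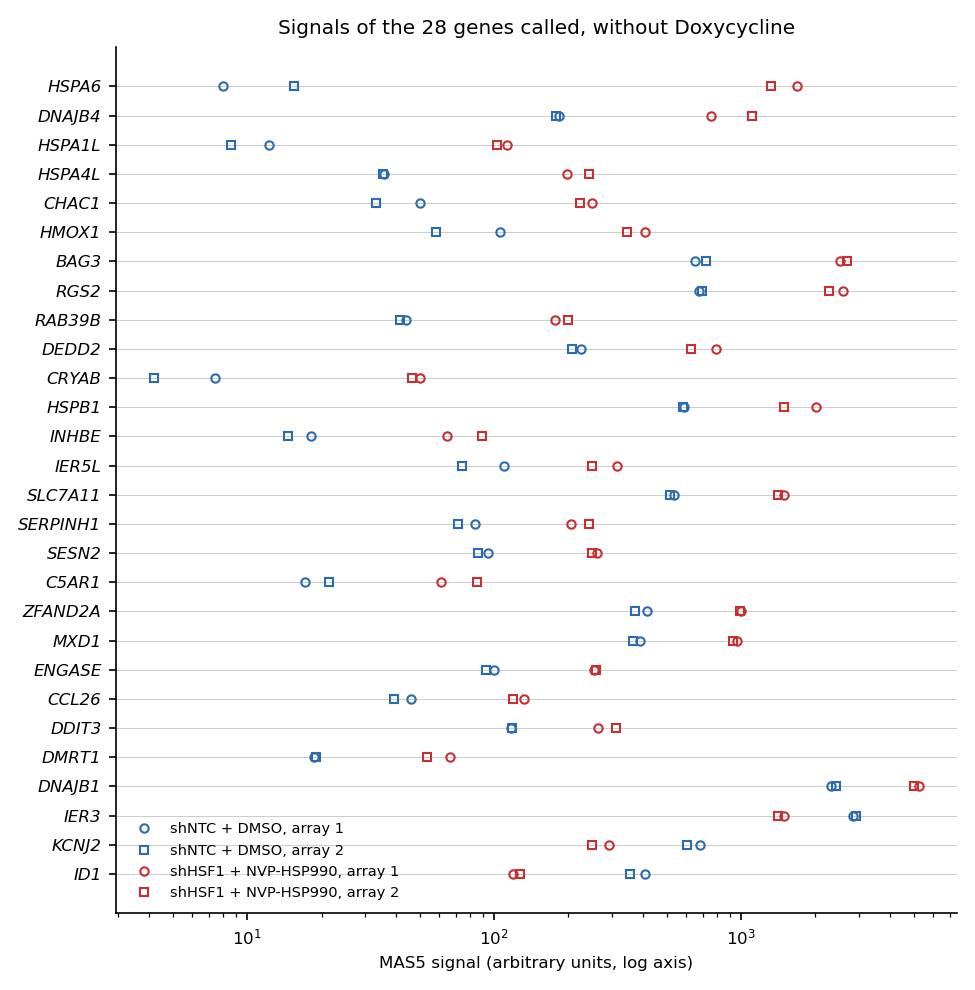
MAS5 signals (arbitrary units, log axis) of the 28 genes called are shown on the 2 DMSO arrays (blue) and the 2 NVP-HSP990 arrays (red), with circles for replicate 1 and squares for replicate 2. The red symbols of the 25 upper genes lie to the right of the blue ones, those of IER3, KCNJ2 and ID1 to the left, and no gene overlaps between groups.

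HSP40 proteins deliver clients to HSP70 and stimulate its ATPase. DNAJB1, the best known heat-inducible HSP40, had signals of 2307.7 and 2427.5 with DMSO and 5252.1 and 5026.4 with NVP-HSP990, a log2 difference of 1.11 (standard error 0.18, adjusted p = 0.0407). DNAJB4, a close relative, had signals of 183.1 and 177.5 with DMSO and 753.3 and 1110.6 with NVP-HSP990, a difference of 2.25 (standard error 0.24, adjusted p = 0.00338). These 2 were the called genes among 16 HSP40 genes tested (0.197% of all genes were called higher), and the list's median was 0.11. DNAJA1 differed by 0.63 (adjusted p = 0.353), while DNAJB11, an HSP40 of the ER, differed by -0.42 (adjusted p = 0.889). Without shNTC DMSO replicate 2 the adjusted p of DNAJB4 was 0.0590, and without any of the 4 arrays compared, or either shHSF1 Dox HSP990 array, that of DNAJB1 was between 0.0908 and 0.605.

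Small heat shock proteins bind unfolding proteins without ATP. HSPB1 (HSP27) had signals of 588.2 and 581.5 with DMSO and 2006.0 and 1500.2 with NVP-HSP990 (1.54, standard error 0.20, adjusted p = 0.0120). CRYAB, alpha-B crystallin, had signals of 7.4 and 4.2 with DMSO, below the array medians, and of 50 and 46.7 with NVP-HSP990 (1.57, standard error 0.18, adjusted p = 0.00638, and 2.90 with 1 added before the log or 0.69 with 64 added). Both were called, of 5 tested among the 10 on the list (0.197% of all genes were called higher). CRYAB reached the median on 1 array outside the NVP-HSP990 arrays and would not have passed the filter on low signals without them. This favoured a difference. The same dependence on the NVP-HSP990 arrays was found for 191 of the 12672 genes and for no other of the 28 called. HSPB8, the partner of BAG3 in selective autophagy, had signals of 34.3 and 34.2 against 98.1 and 125.8 and fell short of the threshold (1.34, adjusted p = 0.0550). HSPB3 and HSPB6 differed by -0.30 and 0.29, and 4 further members, CRYAA among them, were below the filter. The call of CRYAB was lost without shNTC DMSO replicate 2 (adjusted p = 0.134), and that of HSPB1 without either DMSO array or shHSF1 HSP990 replicate 1 (adjusted p between 0.0604 and 0.167).

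BAG3 links HSP70 to small heat shock proteins and to autophagy. Its signals were 649.1 and 718.7 on the DMSO arrays and 2510.3 and 2699.5 on the NVP-HSP990 arrays, a log2 difference of 1.91 with a standard error of 0.17 (adjusted p = 0.00121). It was the 1 gene called of the 6 BAG genes (0.197% of all genes were called higher). The next largest value was that of BAG2, at 0.46 (adjusted p = 0.959), and BAG5 was at -0.31.

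Limma called none of the 17 genes tested for HSP90 and its cochaperones, with 1 higher at an unadjusted p under 0.05 and a median of 0.12. HSP90AA1, the inducible HSP90 of the cytosol, had signals of 4699.6 and 6247.7 with DMSO and 6268.7 and 5530.2 with NVP-HSP990, and the groups overlapped (0.12, standard error 0.28). HSP90AB1, the constitutive form, had 3393.1 and 3569.6 against 3385.8 and 2920.3 (-0.15, standard error 0.17). The member with the smallest p was CHORDC1, a cochaperone, at 1136.8 and 1565.1 against 2154.7 and 2953.9 (0.91, adjusted p = 0.444). Among the 9 chaperonin genes tested, limma called none and none had an unadjusted p under 0.05, with values between -0.17 and 0.29. The signs of the small values for HSP90AA1 and HSP90AB1 were not stable, since the first was -0.085 without shNTC DMSO replicate 1 and the second 0.035 with the mean of all probe sets.

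Of 11 heat shock genes tested outside these chaperone families, 6 were called higher (0.197% of all genes were) and all 11 had a difference above 0 (6611 of all 12672 did). The median was 1.36. The list was chosen with earlier results of these data known, and the study picked DEDD2 on these samples. These counts are therefore not independent evidence. RGS2, a brake on G protein signalling, had signals of 674.7 and 695.6 with DMSO and 2592.3 and 2269.6 with NVP-HSP990 (1.80, standard error 0.16, adjusted p = 0.00121). HMOX1, the haem oxygenase of the oxidative stress response, had 105.8 and 57.9 against 407.0 and 344.9 (2.04, standard error 0.30, adjusted p = 0.0292). DEDD2, a death effector domain protein that the study followed up, had 224.6 and 207.7 against 795.0 and 625.8 (1.64, standard error 0.21, adjusted p = 0.0117). These genes are on the same list but act in unrelated processes, and their induction by heat was not tested here. The other 3 called were IER5L (1.48, adjusted p = 0.0292), SERPINH1, the collagen chaperone HSP47 (1.36, adjusted p = 0.0282), and ZFAND2A, a regulator of the proteasome (1.30, adjusted p = 0.00338). CLU, the extracellular chaperone clusterin, differed by 1.36 (adjusted p = 0.0964), MRPL18 by 0.88 (adjusted p = 0.148) and IER5 by 0.72 (adjusted p = 0.289) without passing. ZFAND2A was not called without shNTC DMSO replicate 2 (adjusted p = 0.118), DEDD2 without either DMSO array or shHSF1 HSP990 replicate 1 (0.0665 to 0.178), HMOX1 without shNTC DMSO replicate 2 or either NVP-HSP990 array (0.0978 to 0.386), SERPINH1 without any of the 4 arrays (0.0665 to 0.489), and IER5L without any of these or either shNTC Dox DMSO array (0.0546 to 0.489).

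DEDD2 and its partner DEDD can be set side by side. DEDD had signals of 1761.8 and 1917.0 on the DMSO arrays and 1634.3 and 1316.1 on the NVP-HSP990 arrays, a difference of -0.32 with a standard error of 0.17 (adjusted p = 1.0). Its NVP-HSP990 arrays lay below its DMSO arrays, as for 15.6% of all genes, while those of DEDD2 lay above, as for 17.6%. DEDD2 was also the 1 gene called among 25 cell death genes tested (0.197% of all genes were called higher), whose median was 0.04. The next largest was PMAIP1, which encodes the BCL2 antagonist NOXA, with 409.3 and 479.5 against 629.5 and 1147.9 (0.92, adjusted p = 0.562). Of the 9 genes tested on a list drawn from the study's text on gene profiles, 7 were called higher (0.197% of all genes were). That list holds HSPA4L and DNAJB1 in place of 2 names that match no symbol. The study chose these genes on these samples, so this count is not independent evidence.

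Genes of the ATF4 pathway formed the other large group among the higher genes. ATF4 is a transcription factor made when amino acids are short or the ER or mitochondria are under stress, and its targets serve amino acid uptake and synthesis. Of 22 genes tested, 4 were called higher (0.197% of all genes were), and 15 had an unadjusted p under 0.05 on the higher side (2.75% of all genes did). A difference above 0 was found in 21 of the 22 (6611 of all 12672 genes), and the median was 0.78. This list too was chosen with earlier results of these data known. CHAC1, which degrades glutathione, had signals of 49.9 and 33.2 with DMSO and 248.2 and 222.9 with NVP-HSP990 (2.14, standard error 0.22, adjusted p = 0.00306). SLC7A11, the cystine importer, had 536.7 and 516.0 against 1491.1 and 1410.7 (1.44, standard error 0.14, adjusted p = 0.00203). Both act on cystine or glutathione. SESN2, a stress-induced inhibitor of mTORC1, had 94.8 and 86.1 against 261.8 and 249.1 (1.35, adjusted p = 0.0113), and DDIT3, the transcription factor CHOP, had 117.3 and 118.2 against 263.8 and 310.8 (1.18, adjusted p = 0.0324).

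The other ATF4 targets gave smaller values or had more spread between arrays. CTH, an enzyme of cysteine synthesis, had 136.2 and 127.4 against 299.7 and 489.9 (1.44, adjusted p = 0.0964), and VLDLR, GDF15, TRIB3, STC2 and ATF3 differed by between 0.85 and 1.15 with adjusted p between 0.113 and 0.279. The transcript of ATF4 itself, which is controlled mainly at translation, gave 2670.1 and 2766.3 with DMSO and 2662.1 and 2627.4 with NVP-HSP990 (-0.04, standard error 0.17). CHAC1 and SLC7A11 were not called without shNTC DMSO replicate 2 (adjusted p = 0.0590 for each), SESN2 without any of the 4 arrays compared (0.0685 to 0.252), and DDIT3 without any of these or either shNTC Dox DMSO array (0.0527 to 0.470).

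The unfolded protein response of the ER, which shares DDIT3 and other ATF4 targets but also runs through XBP1 and ATF6, had no gene called by limma among 20 tested. At an unadjusted p under 0.05, 4 were higher and 1 was lower (2.75% and 2.21% of all genes), and the median was 0.07. The largest values were 0.99 for XBP1 (241.0 and 298.1 against 409.5 and 733.9, adjusted p = 0.294) and 0.75 for HERPUD1, which helps clear proteins from the ER (946.4 and 1029.7 against 1831.2 and 1528.5, adjusted p = 0.148), while HSP90B1, the HSP90 of the ER, was at -0.53 (adjusted p = 1.0). Of 13 genes of the NRF2 oxidative stress response tested, HMOX1 and SLC7A11, both described above, were the 2 called (0.197% of all genes were called higher). The median of these genes was 0.12. GCLM, a subunit of the enzyme that starts glutathione synthesis, was at 0.38 (adjusted p = 0.822) and KEAP1, the inhibitor of NRF2, at -0.37 (adjusted p = 0.998). The oxidative stress list thus added no called gene beyond those that the heat shock and ATF4 lists hold.

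**Figure D3:**
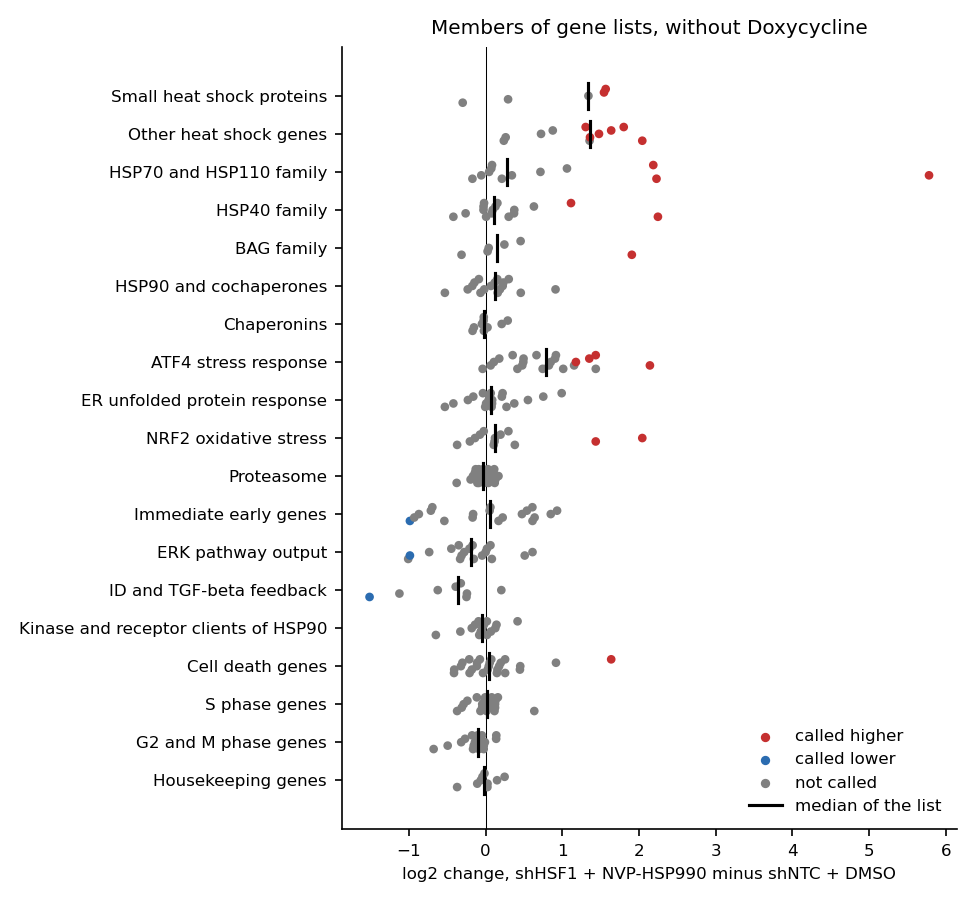
Each point is a tested gene of a list, with its log2 difference between the NVP-HSP990 and the DMSO arrays on the x axis, and the black bar is the median of the list. The heat shock genes outside the chaperone families (labelled other heat shock genes) have a median of 1.36 and the ATF4 targets one of 0.78, and the bar of the small heat shock proteins rests on 5 genes that include CRYAB. The lists were chosen with earlier results of these data known.

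The proteasome list, whose genes are raised when proteasome activity is short, stayed close to 0, with values between -0.38 and 0.17 for 28 genes tested and a median of -0.04. Limma called none of them and none had an unadjusted p under 0.05. None of 17 ubiquitin and autophagy genes was called by limma either, with 1 at an unadjusted p under 0.05 on the higher side. The same held for 6 metallothioneins, of which none had an unadjusted p under 0.05.

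Transcripts of HSP90 clients gave small differences. None of the 15 kinase and receptor genes tested was called by limma, 1 was lower at an unadjusted p under 0.05, and the median was -0.04. That gene was AKT1, with 466.6 and 345.9 on the DMSO arrays and 217.0 and 289.0 on the NVP-HSP990 arrays (-0.65, adjusted p = 0.952). These are transcript levels, and protein levels of the clients were not measured on the arrays.

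On the lower side, ID1 had the largest called difference. It encodes an inhibitor of DNA binding induced by BMP and TGF-beta signals, and its signals were 407.3 and 355.9 with DMSO and 118.9 and 127.3 with NVP-HSP990 (-1.51, standard error 0.19, adjusted p = 0.00856). Of 8 genes tested on the list of ID genes and TGF-beta feedback, 7 had a difference below 0 (6059 of all 12672 genes did) and the median was -0.36. Of these, ID1 was the 1 called (0.0237% of all genes were called lower). SMAD7, the inhibitor of the receptor SMADs, was at 111.7 and 93.3 against 32.6 and 44.5 (-1.12, adjusted p = 0.474). ID3 had signals of 500.4 and 262.0 against 198.9 and 265.3, and the groups overlapped (-0.62, standard error 0.51). ID1 was not called without either DMSO array (adjusted p 0.117 to 0.188).

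KCNJ2, an inward rectifier potassium channel, had signals of 685.5 and 606.2 with DMSO and 292.4 and 249.1 with NVP-HSP990 (-1.21, standard error 0.16, adjusted p = 0.0151). IER3, an early response gene that ERK signalling induces, had 2847.2 and 2937.9 against 1496.5 and 1408.0 (-0.99, standard error 0.16, adjusted p = 0.0492). IER3 was the 1 gene called among 19 immediate early genes and 18 genes of ERK output tested (0.0237% of all genes were called lower). The immediate early genes were split in direction, with 5 higher and 6 lower at an unadjusted p under 0.05 (2.75% and 2.21% of all genes). Of the 5 higher, FOS passed the filter on low signals only through its NVP-HSP990 arrays, which favoured a difference. ATF3, also higher, was at 0.85, and among the lower ones JUNB was at -0.93 and IER2 at -0.87 (adjusted p = 0.225, 0.444 and 0.171). Of the ERK feedback genes, SPRY1 and SPRY4 were at -1.01 and -0.74 (adjusted p = 0.444 and 0.905), but DUSP6, DUSP4 and DUSP5 were at -0.21, -0.15 and -3.32e-05. MYC was at 0.61 (adjusted p = 0.591). On the ERK list 13 genes had a difference below 0 (6059 of all 12672 genes did) and 5 above, and the median was -0.19. The call of KCNJ2 was lost without either DMSO array or shHSF1 HSP990 replicate 2 (adjusted p 0.117 to 0.299), and that of IER3 without any of the 4 arrays compared or either shHSF1 Dox HSP990 array (0.102 to 0.599).

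The other 7 genes called higher belonged to none of the lists. RAB39B, a small GTPase of vesicle transport, had 43.9 and 41.5 with DMSO and 176.2 and 198.4 with NVP-HSP990 (1.79, standard error 0.19, adjusted p = 0.00338). MXD1, a partner of MAX that opposes MYC, had 390.3 and 365.7 against 962.1 and 925.8 (1.29, standard error 0.18, adjusted p = 0.0216). ENGASE, which removes N-glycans from unfolded glycoproteins in the cytosol, had 100.2 and 92.5 against 254.1 and 258.9 (1.28, standard error 0.20, adjusted p = 0.0324). For each of these the arrays of a group differed far less than the groups did. CCL26, the chemokine eotaxin-3, had 46 and 39.3 against 132.0 and 119.0 (1.27, adjusted p = 0.0333). INHBE, an activin subunit, had 18.1 and 14.6 against 64.4 and 89.2 (1.51, adjusted p = 0.0300), and C5AR1, the receptor of complement C5a, had 17.2 and 21.5 against 61.1 and 85.4 (1.33, adjusted p = 0.0347). DMRT1, a transcription factor of the germ line, had 18.6 and 19.0 against 66.5 and 53.7 (1.12, adjusted p = 0.0453). The last 3 had DMSO signals near the array medians, and with 64 added before the log their differences were 0.80, 0.71 and 0.58.

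These 7 calls were lost in at least 1 of the fits that left out an array, which leaves its group with 1 array. Over those fits the differences were 1.24 to 1.33 for MXD1, 1.23 to 1.33 for ENGASE and 1.13 to 1.52 for C5AR1. RAB39B was not called without shNTC DMSO replicate 2 (adjusted p = 0.0866). MXD1 and ENGASE were not called without any 1 of the 4 arrays compared (0.0782 to 0.323 and 0.127 to 0.502). INHBE was not called without either DMSO array or shHSF1 HSP990 replicate 2 (0.224 to 0.458), C5AR1 without any of these 3 or either shNTC Dox DMSO array (0.0666 to 0.545), CCL26 without any of the 4 arrays or either shNTC Dox DMSO array (0.0561 to 0.528), and DMRT1 without any 1 of the 8 arrays (0.0540 to 0.545).

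Cell cycle genes gave small differences after the 3 h. Limma called none of 21 S phase genes or of 20 genes of the G2 and M phases, with 1 lower at an unadjusted p under 0.05 in each list, and the medians were 0.01 and -0.10. In the second list 18 of 20 had a difference below 0 (6059 of all 12672 genes did). The largest was that of the mitotic kinase PLK1, with 196.8 and 163.9 against 104.5 and 108.2 (-0.68, adjusted p = 0.574). Of 9 housekeeping genes tested, limma called none and none had an unadjusted p under 0.05, and the median was -0.01. Limma likewise called none of 17 interferon genes, 13 chemokine and cytokine genes, 16 p53 targets, 15 genes of cholesterol synthesis, 18 of glycolysis and hypoxia, 10 YAP targets, 9 histone genes and 6 glucocorticoid receptor targets, with 0, 3, 3, 1, 2, 0, 1 and 2 of them at an unadjusted p under 0.05. Among the cytokines, IL6 was at 27.2 and 19.1 against 67.0 and 63.5 (1.06, adjusted p = 0.0964).

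The groups lay apart for 17.6% of all genes on the higher side and 15.6% on the lower side. Among them, some further genes had large differences that did not pass the threshold. On the higher side these were RBFOX3 (1.32), DAPK1 (1.32), TRIML2 (1.27), ANKRD37 (1.26), CCDC121 (1.26) and ECM2 (1.25), with adjusted p between 0.0669 and 0.223. RBFOX3 had DMSO signals of 3.6 and 2.7, below the array medians, and its difference was 2.96 with 1 added before the log and 0.52 with 64 added. Like CRYAB, RBFOX3 would not have passed the filter on low signals without its NVP-HSP990 arrays, which favoured a difference. On the lower side the largest was ZBTB43, at 744.6 and 498.4 with DMSO and 428.0 and 59.3 with NVP-HSP990 (-1.77, standard error 0.66), where 1 NVP-HSP990 array stood far below the other. SOX9, a transcription factor of the neural crest and melanocytes, was at 357.2 and 249.8 against 115.3 and 80.3 (-1.49, adjusted p = 0.512), and its relative SOX2 at 131.8 and 112.2 against 51.7 and 40.8 (-1.15, adjusted p = 0.187). DLX2, a homeobox factor, was at 1131.2 and 1005.5 against 531.1 and 374.3 (-1.23, adjusted p = 0.0670). ZNF703, RIPK4, ABCB9, SERTAD3 and RAPGEF1 lay between -1.15 and -1.03.

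With Doxycycline, the same comparison was made with the hairpins turned on. It set 4 other arrays against each other, but 1 fit over all 8 arrays gave the spread for both comparisons, so their calls are not independent. It called 739 of the 12672 genes (5.83%), 360 of them higher (2.84%) and 379 lower (2.99%). Of the 28 genes called without Doxycycline, 12 were called in the same direction with it, 3 in the opposite direction and 13 were not called. The 3 were 1 or 0 without either shHSF1 Dox HSP990 array and 0 without shNTC Dox DMSO replicate 2. The difference between the 2 comparisons was tested as an interaction in the same fit, which called 100 genes (0.789%), 61 of them with the larger value without Doxycycline and 39 with the larger value with it. Of the 28 genes, 9 were among these 100. The 100 were 7 without shNTC DMSO replicate 1 and 13 without replicate 2, 34 and 24 without shNTC Dox DMSO replicate 1 and 2, 62 without shHSF1 HSP990 replicate 1 and 42 without shHSF1 Dox HSP990 replicate 2.

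All 9 were on the chaperone or heat shock lists, and each had the larger value without Doxycycline. The interaction contains the same difference by which these genes were called higher. That choice favours a larger value without Doxycycline, so the shared direction is not independent evidence. HSPA6 had signals of 5.1 and 12.7 with Doxycycline and DMSO and 18.3 and 12.4 with Doxycycline and NVP-HSP990, a difference of 0.34 (adjusted p = 0.490) against 5.78 without Doxycycline (interaction 5.44, adjusted p = 0.000172). BAG3 had 601.1 and 794.7 against 391.2 and 368.1, a difference of -0.84 (adjusted p = 0.0161), so that it was called higher without and lower with Doxycycline (interaction 2.74, adjusted p = 0.00149). HSPB1 had 589.2 and 633.4 against 326.2 and 220.4 (-1.14, adjusted p = 0.00966, interaction 2.68, adjusted p = 0.00569). SERPINH1 was the third gene called in opposite directions, with 87.9 and 72.0 against 38.8 and 40.1 (-0.79, adjusted p = 0.0476, interaction 2.15, adjusted p = 0.0116). The other 5 were HSPA4L, IER5L, HSPA1L, CRYAB and DEDD2, with interactions of 2.07, 1.98, 1.89, 1.81 and 1.78 and adjusted p between 0.0116 and 0.0261, and none of these 5 was called with Doxycycline. HSPH1, which was not called without Doxycycline, had an interaction of 1.40 (adjusted p = 0.0394). The interactions of HSPA6, BAG3 and HSPB1 were called in all 8 fits that left out an array. Those of HSPA4L and SERPINH1 were lost without either shNTC DMSO array (adjusted p 0.0574 to 0.0792), and those of HSPA1L, CRYAB, DEDD2 and IER5L without either of these and some others (0.0519 to 0.136). That of HSPH1 was lost without any 1 of the 8 arrays (0.0554 to 0.249).

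**Figure D4:**
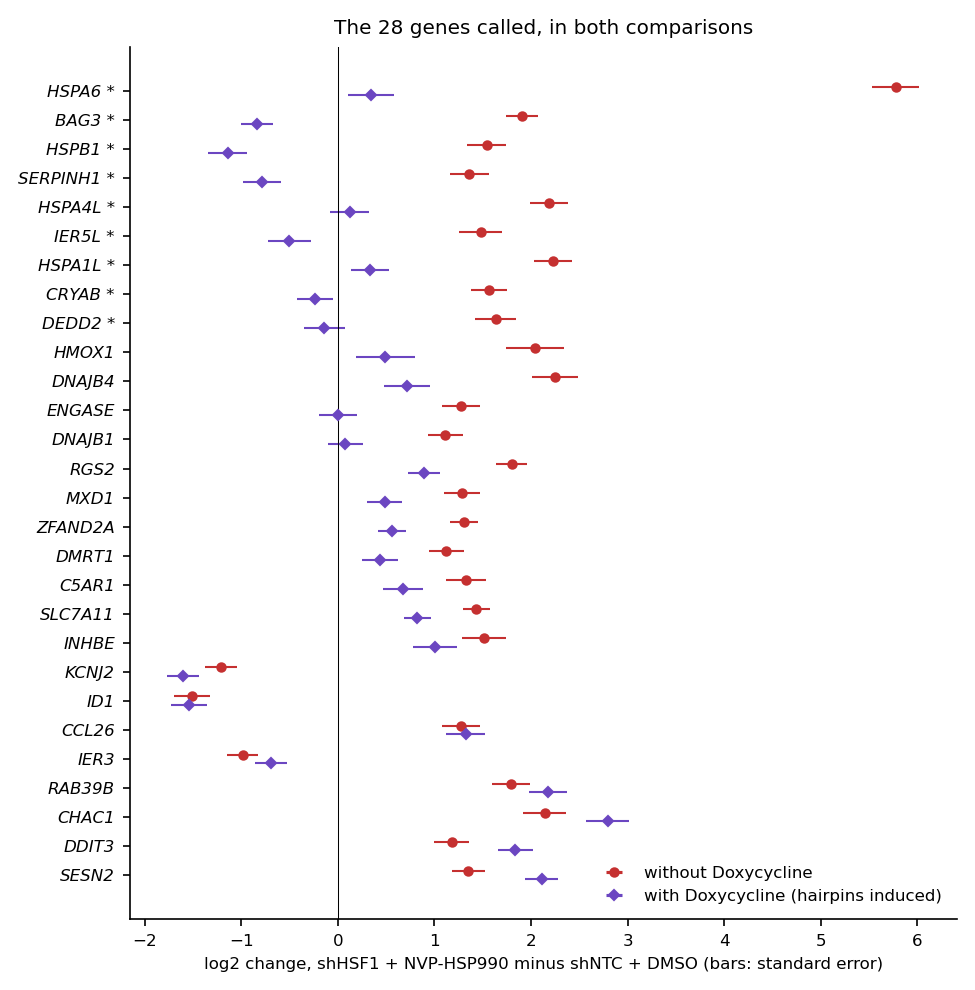
Log2 differences between the NVP-HSP990 and the DMSO arrays are shown for the 28 genes, without Doxycycline (red circles) and with it (purple diamonds), with bars for the standard error. An asterisk marks the 9 genes whose difference between the comparisons was called, from HSPA6 (5.44) to DEDD2 (1.78).

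Some ATF4 targets were called higher in each comparison. With Doxycycline the median of the list was 0.80 and 11 of the 22 genes were called higher, against 0.78 and 4 without it. CHAC1 differed by 2.80 with Doxycycline and by 2.14 without it (interaction -0.66, standard error 0.31, adjusted p = 0.509), and SESN2 by 2.11 and 1.35 (interaction -0.76, standard error 0.24, adjusted p = 0.250). An interaction that misses the threshold does not show that the values were equal. ID1 differed by -1.54 and -1.51, KCNJ2 by -1.61 and -1.21, RAB39B by 2.18 and 1.79 and CCL26 by 1.32 and 1.27 with and without Doxycycline. RGS2 and ZFAND2A, of the heat shock list, were also called higher with Doxycycline (adjusted p = 0.0115 and 0.0473). RGS2 differed by 0.89 with it and 1.80 without it (interaction 0.91, adjusted p = 0.133). For ZFAND2A the values were 0.56 and 1.30 (interaction 0.75, adjusted p = 0.154). DNAJB1, whose difference was 0.08 with Doxycycline and 1.11 without it, had an interaction of 1.04 that was not called (adjusted p = 0.117), and so had DNAJB4 (1.53, adjusted p = 0.0820) and HMOX1 (1.55, adjusted p = 0.168).

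Where a gene had several probe sets, the brightest stood for it. Of the 28 genes, 10 had more than 1 probe set above the filter, and all 11 additional probe sets had the same direction, of which 5 were called when all probe sets were tested singly. The second probe set of HSPA6 differed by 5.40, and that of DNAJB1, with 394.2 and 444.6 on the DMSO arrays and 2142.4 and 2292.3 on the NVP-HSP990 arrays, by 2.36 (adjusted p = 0.000142), more than the brightest. The other probe sets of SLC7A11 differed by 0.36 and 1.46, that of SESN2 by 0.58 and that of RAB39B by 0.67, so the size of a difference depended on the probe set in these genes.

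**Figure D5:**
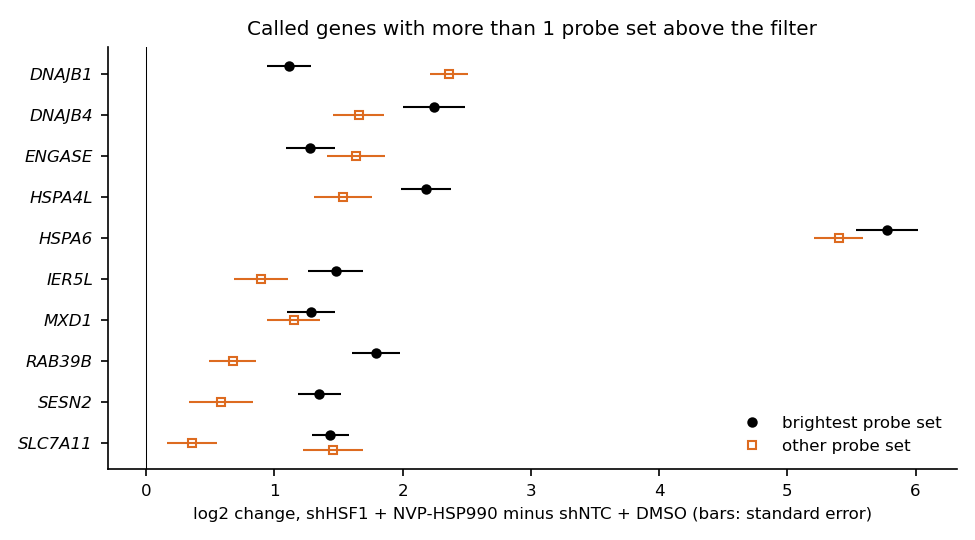
The log2 difference between the NVP-HSP990 and the DMSO arrays is shown for each probe set of the 10 called genes with more than 1 probe set above the filter, with bars for the standard error. The additional probe sets (open squares) lie on the same side of 0 as the brightest (filled circles), with DNAJB1 at 2.36 against 1.11 and RAB39B at 0.67 against 1.79.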

How the data were processed

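Gene expression was measured in A375 cells on 8 HG-U133 Plus2 arrays in 4 groups of 2, and 4 arrays form the comparison described here. Groups and replicate numbers came from the sample titles, since the description fields name cells and agents of other experiments. Amplified, biotin-labelled cDNA was hybridised. The deposited values are signal intensities on a linear scale, which the authors computed with MAS5 (per the submitters' processing notes, version not given in the sources used here) and which have the same mean of 150 on each array once 2 percent of the probe sets are trimmed at each end. They were not normalised further. The number of arrays limits the precision.

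Of 54675 probe sets, 41091 name 1 gene in the platform annotation (41037 of them matched to RefSeq), 1801 several, 11721 none, and 62 are controls. The brightest probe set stood for each of 19775 genes. Genes entered the test when their signal reached the array's median on at least 2 of the 8 arrays, which kept 12672. Log2 of the signal plus 16 was fitted with limma 3.58.1 (R 4.3.3) with 1 mean for each of the 4 groups and all 8 arrays in the fit, with empirical Bayes variances trended on intensity (4 residual and 6.36 prior degrees of freedom). A log2 difference on this scale understates changes of dim genes. Tests were two-sided with Benjamini-Hochberg adjustment over all genes tested, and an adjusted p under 0.05 was the threshold for a call. The study's statistics section names a Student test for the paper in general and none for the arrays in particular. The fit of this comparison was also tested on simulated data. Plots were made with Python 3.11.15.

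The members, the gene lists and the alternatives were chosen with earlier results of these data known. The rule named every gene called, the 10 higher and 10 lower genes with the largest changes among those not called whose arrays lay apart at an unadjusted p under 0.05, up to 4 members of each list with the largest changes, and HSF1, DEDD, DEDD2, BAG3 and the HSP70 and HSP90 genes of the study. HSPA2, HSPA5, HSPA9, HSPB6, IER5, MRPL18, TRIB3, STC2, ATF3, ATF4, FOS, DUSP4, DUSP5 and DUSP6 were named after their values were seen. A heat shock element was searched as letters in RefSeq promoter windows of GRCh38.p14. As alternatives, the added value, the filter, the normalisation (quantile or median), the choice of probe set, the variance trend and the arrays in the fit were varied, a replicate block, a minimum fold of 2 or the methods' t-test was used, and each array was left out. The other probe sets of called genes were looked at after seeing the data.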

Additional observations from a re-analysis of the deposited data

Results flagged for a closer look

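The interaction in the limma fit over all 8 arrays called 100 genes whose difference between the NVP-HSP990 and the DMSO arrays was not the same without as with Doxycycline, 61 larger without it and 39 larger with it. Of these, the 10 described in the report are given here. The value without Doxycycline exceeded that with it by 5.44 on the log2 scale for HSPA6, by 2.74 for BAG3 and by 2.68 for HSPB1. For these 3 genes the interaction was called in all 8 fits that left out 1 array. It was 2.15 for SERPINH1, 2.07 for HSPA4L, 1.98 for IER5L, 1.89 for HSPA1L, 1.81 for CRYAB, 1.78 for DEDD2 and 1.40 for HSPH1, and each of these was lost in at least 2 of those fits. The interaction sets arrays with the hairpins turned on against arrays without, and the hairpin line and the drug change together in both comparisons. All of these genes but HSPH1 had been called higher by a difference that the interaction contains, which favours a larger value without Doxycycline. HSF1 signals were 99.0 and 42.5 on the NVP-HSP990 arrays without Doxycycline and 5.5 and 7.3 on those with it, and the part of the HSF1 level in these differences was not tested on the arrays.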

How the results depend on the processing

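The number of genes called, 28, was 24 to 38 with other values added before the log, a stricter filter, quantile normalisation, median centring, another choice of probe sets, no variance trend or only the 4 arrays. It was 16 with no filter, 1 for a fold of at least 2 (HSPA6), and 0 with the methods' t-test after adjustment, which gave 699 genes at an unadjusted p under 0.05. Leaving out 1 array gave 5 to 30. The 100 genes of the interaction were 59 with no filter, 3 for a fold of at least 2, 7 to 76 without 1 array, and 80 to 117 under the other settings. The replicate numbers of the titles were not shown to pair the arrays, since the labels give no shared batch and there are only 2 numbers. The deviations from the group mean had a correlation of 0.276 between equal numbers of the 2 groups compared, of 0.464 between the DMSO groups and of 0.685 between the NVP-HSP990 groups with and without Doxycycline, and of 0.0156 to 0.198 in the other 3 pairs of groups. With the replicate block, 44 genes were called and the interaction called 279. All 28 genes kept their direction wherever they were measured, and CRYAB was not measured under the stricter filter. Small differences reversed for HSF1 (-0.0018 to 0.97 without 1 array, lowest without shHSF1 HSP990 replicate 1), HSP90AA1 and HSPA9 (-0.085 to 0.32 and -0.00989 to 0.16, lowest without shNTC DMSO replicate 1) and HSP90AB1 (0.035 with the mean of all probe sets), and the cause was not tested. The interaction could not be fitted with only the 4 arrays and was not run with the t-test. Signals near the array median limit the precision for HSPA6, HSPA1L, RBFOX3, CRYAB, INHBE, C5AR1 and DMRT1.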
